A study of Homo sapiens with 12 samples.

Results

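Expression of integrins and focal adhesion proteins was examined in a human endothelial cell line given one of 3 microRNA mimics. The genes are 44 listed by name, of 36433 gene symbols in the deposited table, and all 44 were found there. They comprise 19 integrin subunits (12 alpha and 7 beta) and 25 proteins of the inner face of the adhesion, called adaptor proteins below. HMEC-1, an immortalised line of dermal microvascular endothelial cells, was transfected by lipid reagent with a synthetic mimic of miR-126, miR-143 or miR-150, or with a scrambled RNA without a target as the control. A mimic is a short double-stranded RNA made to act as the mature microRNA. Every group received 50 nM RNA and was collected 48 h later, and each holds 3 libraries, numbered 2, 3 and 4. All 12 libraries come from 1 cell line, and the labels do not say whether a number marks a separate culture, so p-values here reflect only how far these libraries vary, and that variation may be technical. Values are TPM, transcript abundances scaled for transcript length and library total, and lists of 3 values follow the order of the replicate numbers.

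Integrins are surface receptors made of an alpha and a beta subunit, and the pair decides which matrix protein is bound. Bound integrins cluster, and their tails recruit talin, kindlin and a layer of adaptor and kinase proteins that join them to actin and pass signals into the cell; this assembly is the focal adhesion. In endothelium, fibronectin, laminin, collagen and alpha V receptors hold the cells to the basement membrane and take part in sprouting and flow sensing. MicroRNAs lower target transcripts by pairing with their 3' untranslated region (3' UTR), mainly through the seed, bases 2 to 8 of the guide strand. miR-126 is known for its abundance in endothelium, and its reported targets include the adaptor CRK.

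The mature strands are shown because the site searches rest on their seeds, written in capitals (RefSeq, GRCh38.p14; miR-126-3p from chr9:136670653-136670674 and miR-143-3p from chr5:149428978-149428998, both on the plus strand). The labels do not say which arm each mimic carries, and the 3p arms were used for the search.
hsa-miR-126-3p: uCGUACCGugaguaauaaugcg
hsa-miR-143-3p: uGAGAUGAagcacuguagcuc
The seeds differ, so a 3' UTR site is CGGTACG for miR-126-3p and TCATCTC for miR-143-3p on the transcript's strand. miR-150 was not searched.

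The longest annotated 3' UTR of each member (GENCODE 29) was searched, and all 44 members have one. CGGTACG was in 0 of 44 members, and 0.296% of the 12498 tested genes with a 3' UTR hold it. TCATCTC was in 10 of 44 members (22.7%), against 14.4% of those tested genes: ITGA5, ITGA6, ITGA11, ITGB5, ITGB8, LIMS2, NEDD9, PARVA, TNS1 and TNS3, the last with 2 sites. For 6 of these genes the sites are shown, to set beside their levels with miR-143, as 23 bases of the transcript strand (GRCh38) with the match in capitals. They lie in the 3' UTR of ITGA5 at chr12:54395367-54395389 (minus strand), ITGA6 at chr2:172506043-172506065 (plus), ITGA11 at chr15:68302929-68302951 (minus), ITGB8 at chr7:20414459-20414481 (plus), LIMS2 at chr2:127639127-127639149 (minus) and TNS3 at chr7:47278642-47278664 (minus).
ITGA5: cactgatgctgccccTCATCTCt
ITGA6: tggttgttaaaaatgTCATCTCa
ITGA11: gctttgcacttgaccTCATCTCc
ITGB8: gatccttttatattaTCATCTCa
LIMS2: tcccttcctgttcccTCATCTCt
TNS3: acttgcattctggcaTCATCTCa
An A follows the match in ITGA6, ITGB8, PARVA and the first TNS3 site, which extends it by 1 base. The shorter match GGTACG, to bases 2 to 7 of miR-126-3p, was searched after seeing that the longer one was absent. It was in 3 members and in 3.97% of the same tested genes: CRK at chr17:1423329-1423351 (minus), ITGA6 at chr2:172504097-172504119 (plus) and RAPGEF1 at chr9:131578903-131578925 (minus).
CRK: taattaccatattcagGGTACGa
ITGA6, shorter match: ttctttaaacgctctaGGTACGa
RAPGEF1: tcagcaggcccggaaaGGTACGc
An A follows this shorter match in CRK and ITGA6, which extends it by 1 base, and a C follows it in RAPGEF1. A match of letters is a description and shows no binding. The 10 members with TCATCTC were all among the 41 tested members, whereas the 22.7% is of all 44. The length of the 3' UTR was not taken into account in any of these shares.

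All 12 endothelial markers examined were present (summed 1731 to 3139 TPM per library). Leukocyte markers summed to at most 7.16 TPM and platelet markers to at most 0.874 TPM. Of the 10 fibroblast and pericyte markers, 6 had a mean of at least 1 TPM (COL1A1, COL1A2, ACTA2, RGS5, CSPG4 and PDGFRB) and PDGFRA, DCN and LUM were under 1 TPM in every library; the list summed to 54.6 to 137 TPM in the controls, 56.8 to 78.6 with miR-126, 44.2 to 64.5 with miR-143 and 40.2 to 52.0 with miR-150. All 4 lymphatic endothelial markers were present, led by PDPN, and their sum was lower with each mimic without overlap: 137 to 147 TPM in the controls, 83.7 to 84.8 with miR-126, 62.7 to 83.4 with miR-143 and 84.4 to 111 with miR-150. The fall was that of PDPN alone (124 to 132 TPM in the controls, 60.5 to 66.0 with miR-126). LYVE1 went the other way with miR-126, from 6.99 to 10.7 TPM in the controls to 11.2 to 15.9. PROX1 and FLT4 overlapped the controls with every mimic, and LYVE1 did with miR-143 and miR-150. Of the 6 epithelial markers, CDH1, KRT5 and KRT14 were under 1 TPM in every library. The epithelial list, led by KRT18, summed to 446 to 634 TPM in the controls, 524 to 579 with miR-126, 730 to 952 with miR-143 and 900.0 to 1024 with miR-150. The part of these lists in the members' values was not tested. Replicate 4 of miR-143 and replicate 4 of miR-150 stood apart as short-biased libraries, with higher values for short transcripts: the Spearman correlation of a gene's deviation with its transcript length was -0.398 and -0.547 there, against -0.00822 to 0.289 in the other libraries. This touches the members because they are long, with a median expressed transcript of 3901 bases for the tested integrin subunits and 3418 for the adaptors, against 2127 for all tested genes. Depth is unknown, since TPM keep no read number. In bulk RNA, fewer cells of a type and less RNA per cell cannot be told apart.

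Of the 44 members, 41 passed the filter of at least 1 TPM in at least 3 libraries, 16 integrin subunits and all 25 adaptors. ITGA9, ITGB2 and ITGB7 did not, with highest values of 2.18, 1.04 and 0.631 TPM; the beta subunits among them are those of leukocyte integrins. The common beta subunit ITGB1 was the most abundant integrin transcript, with a mean of 775 TPM over the 12 libraries, followed by its fibronectin partner ITGA5 (509.7 TPM), the laminin receptor subunit ITGA3 (207 TPM) and the alpha V partner ITGB5 (178 TPM). Next came ITGA6 (79.2 TPM), ITGAV (63.1 TPM), ITGA10 (57.6 TPM) and ITGA4 (46.6 TPM), whose ranges over the libraries overlapped. The lowest tested were ITGB8 (2.83 TPM), ITGA7 (2.17 TPM) and ITGA11 (2.15 TPM). Not all of this signal lies in coding transcripts: for ITGAE 0.0487% of the TPM did, for ITGA7 34.6% and for ITGA1 41.2%, against 99.7% for ITGB1 and 98.5% for ITGAV.

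**Figure D1:**
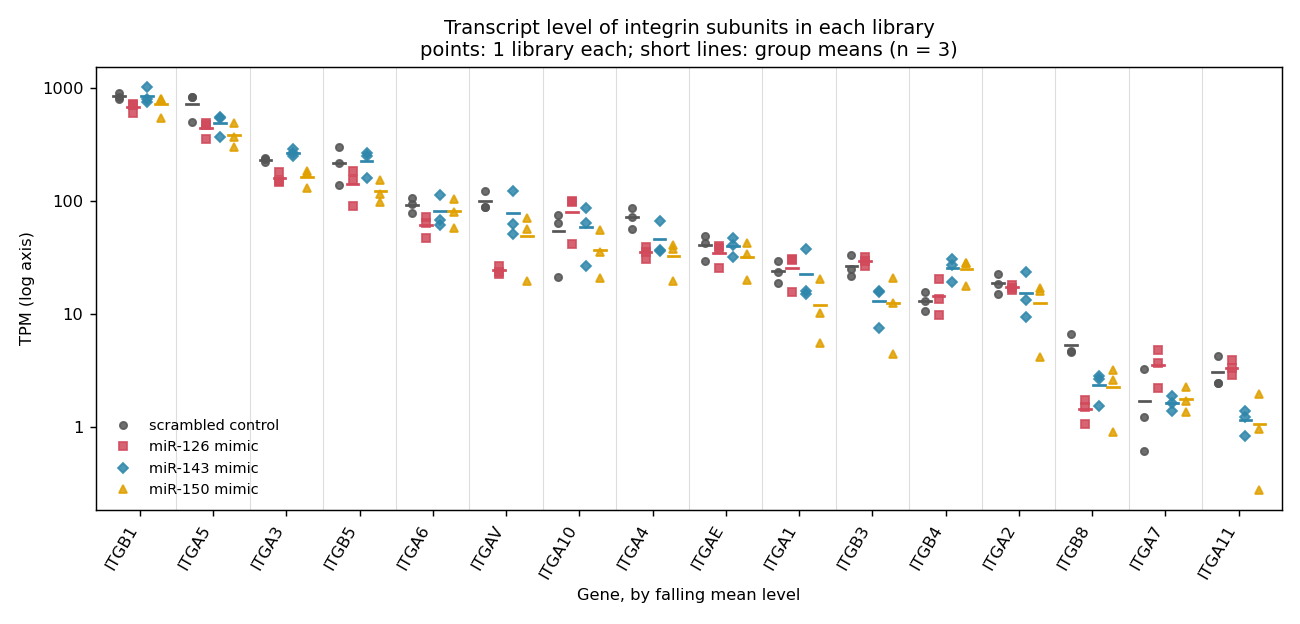
TPM of the 16 tested integrin subunits (horizontal axis, ordered by mean level) in each of the 12 libraries on a log axis; points are libraries and short lines are group means of 3. ITGB1 and ITGA5 stand at the top, and the 3 ITGAV points with miR-126 (22.7 to 26.5 TPM) lie under the 3 control points (88.8 to 122 TPM).

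With the miR-126 mimic, 3 of 16 integrin subunits fell and none rose, while 1 of 25 adaptors rose and none fell (limma, adjusted p under 0.05). The alpha V subunit ITGAV, its partner ITGB8 and the laminin receptor subunit ITGA3 were lower, and PTK2B, the kinase related to focal adhesion kinase, was higher. Of all 13750 tested genes, 1.73% were called lower and 3.37% higher in this comparison. Of the integrin subunits, 10 had a log2 fold change under 0 and 6 above it, with a median of -0.27, against 0.14 for the adaptors (6 under 0 and 19 above) and 0.10 for all tested genes. All 3 mimic libraries lay under all 3 controls for 7 integrin subunits and 3 adaptors, and above them for 0 integrin subunits and 9 adaptors; 11.1% of tested genes lay wholly under and 23.1% wholly above. Centring each library on its median gene shifts every log2 fold change of this comparison by -0.14 and turns the split of called genes from 464 higher and 238 lower to 354 and 547; 1 member was then called higher and 6 lower.

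Libraries of the same number deviated together between miR-126 and the controls, so the model was also fitted with a block for the replicate number; below, "in neither fit" and "with the block alone" refer to these 2 fits of all 12 libraries, with no other scaling. It called 6 integrin subunits lower (ITGA3, ITGA4, ITGA5, ITGAV, ITGB5 and ITGB8) and 1 higher (ITGA10), with 1 adaptor lower (CRK) and 1 higher (PTK2B); 5.11% of all tested genes were lower and 11.8% higher in that fit. Without these 2 short-biased libraries, which enter here only through the shared estimate of spread, 9 members passed in place of 4. The additional ones were ITGA4 and CRK, lower, and PXN, RAPGEF1 and TGFB1I1, higher. Calls over all tested genes rose as well, to 1835 from 702 in the fit of all 12 libraries with no block. The calls of the fit without block are near the threshold: leaving out any 1 of the 6 libraries took the adjusted p of ITGB8 (0.0532 to 0.121), ITGA3 (0.0519 to 0.171) and PTK2B (0.0743 to 0.110) past 0.05, and ITGAV (0.0489 to 0.103) passed only without control replicate 3. All 4 passed without the 2 short-biased libraries, with the length trend removed, with centring and with quantile normalization. In those limma fits adjusted p was 0.000341 to 0.00361 for ITGAV and 0.000476 to 0.00275 for ITGB8. It was 0.00536 to 0.0122 for ITGA3 and 0.00248 to 0.00905 for PTK2B. With no expression filter none of the 4 passed.

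With the miR-143 mimic and no block, no integrin subunit passed the test and 1 adaptor did, PTK2B, which rose (limma). Of all tested genes 1.48% were lower and 1.84% higher. At an unadjusted p under 0.05, 4 integrin subunits were lower (ITGA4, ITGA11, ITGB3 and ITGB8) and 1 higher (ITGB4), and 3 adaptors were higher (LIMS2, PTK2B and TNS2) and 0 lower. The share of all tested genes at that cut was not counted, so these counts have no background to be read against. The median log2 fold change was -0.21 for the integrin subunits, 0.038 for the adaptors and -0.043 for all tested genes. Of the members, 3 integrin subunits and 1 adaptor lay wholly under the controls, against 13.9% of tested genes, and 2 integrin subunits and 3 adaptors wholly above, against 11.4%. The block called 3 integrin subunits lower and 1 higher, with 0 adaptors lower and 2 higher. Of all 13750 tested genes, that fit called 807 lower and 968 higher. The replicate numbers were not taken as pairs in this comparison.

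With the miR-150 mimic and no block, no member passed the test in either direction (limma), while 2.23% of all tested genes were lower and 1.08% higher. Values of the integrin subunits nevertheless lay mostly under the controls, with 14 of 16 log2 fold changes below 0 and a median of -0.76, against -0.17 for the adaptors (19 of 25 below 0) and -0.11 for all tested genes. At an unadjusted p under 0.05, 9 integrin subunits were lower (ITGA1, ITGA3, ITGA4, ITGA5, ITGA11, ITGAV, ITGB3, ITGB5 and ITGB8) and 1 higher (ITGB4), with 2 adaptors lower (DOCK1 and LIMS1) and 0 higher. Here too the share of all tested genes at that cut was not counted, so these counts have no background. Altogether 7 integrin subunits and 2 adaptors lay wholly under the controls, against 14.6% of tested genes, and 1 integrin subunit and 0 adaptors wholly above, against 6.87%. Single libraries decide some of these calls: ITGA5 passed without control replicate 3 (adjusted p = 0.0402), ITGA11 without miR-150 replicate 2 (0.0410), ITGA3 and ITGB3 without miR-150 replicate 3 (0.0482 and 0.0428), all lower, and RAPGEF1, higher, without miR-150 replicate 4 (0.0363). Without both short-biased libraries PXN passed as higher (log2 fold change 0.43, against 0.15 with all 12; adjusted p = 0.0405), and so did RAPGEF1 (adjusted p = 0.0188). Centring on the median gene shifts this comparison by 0.13, turns the split of called genes from 149 higher and 307 lower to 245 and 337, and calls ITGA4 and ITGB8 lower. Removing the per-library length trend called 917 genes, 7 of them members. Quantile normalization called 673 genes, with 1 member higher and 3 lower. The block called 7 integrin subunits lower and 1 higher, with 1 adaptor lower and 0 higher. Of all 13750 tested genes, that fit called 1129 lower and 565 higher. The replicate numbers were not taken as pairs in this comparison either.

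**Figure D2:**
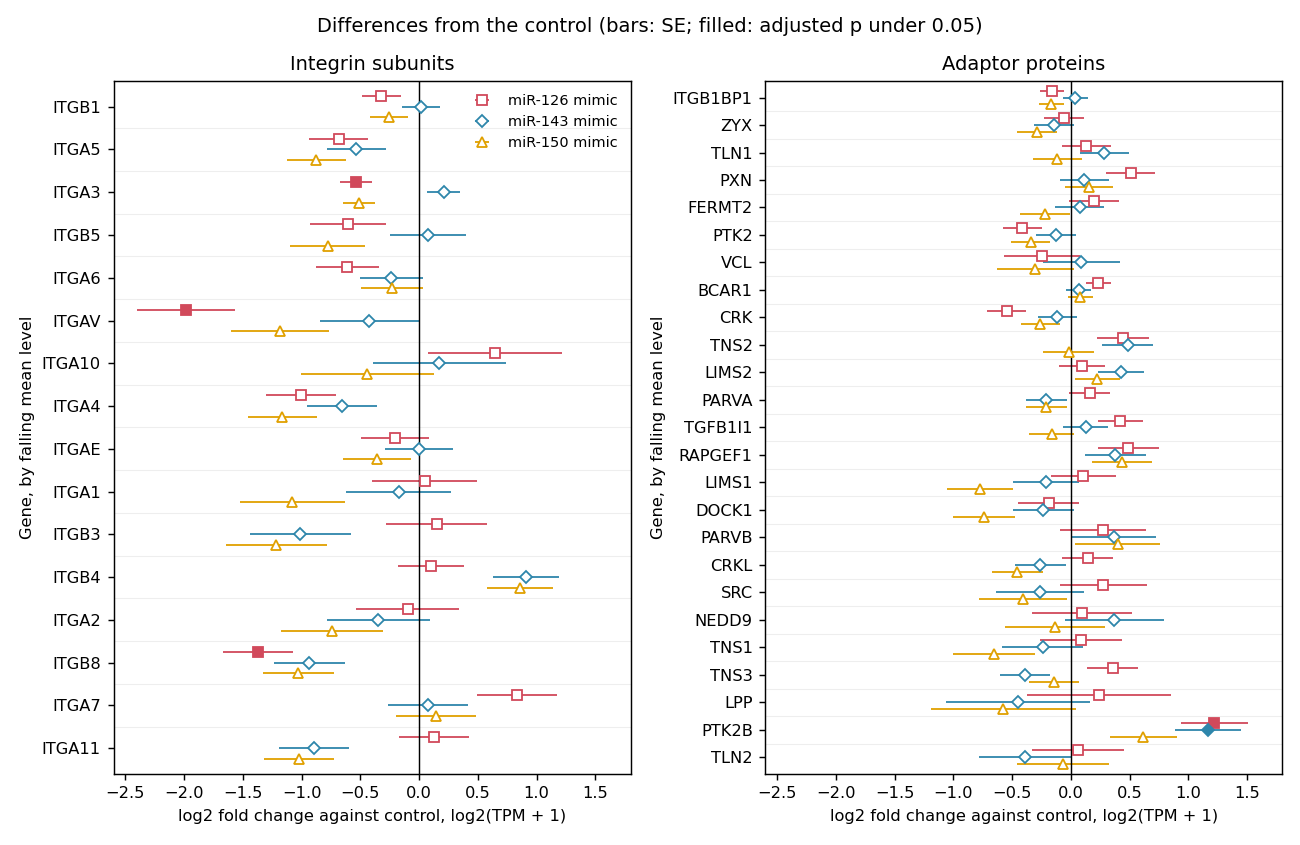
Log2 fold change against the control on the log2(TPM + 1) scale (horizontal axis) for the 16 tested integrin subunits and 25 adaptors (vertical axis, by falling mean level); symbols mark the mimic, bars are the standard error, and filled symbols have an adjusted p under 0.05. The filled symbols are ITGAV, ITGB8 and ITGA3 on the left and PTK2B, with miR-126 and miR-143, on the right.

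ITGAV (GRCh38, chr2:186590065-186680901, plus strand) encodes the alpha V subunit, which pairs with several beta subunits to bind vitronectin, fibronectin and latent TGF-beta. ITGAV measured 88.8, 89.4 and 122 TPM in the controls, 26.5, 23.7 and 22.7 with miR-126, 124, 62.5 and 50.9 with miR-143, and 70.2, 57.0 and 19.6 with miR-150. The 3 miR-126 libraries lay close together and far under the lowest control, while the miR-143 and miR-150 libraries were spread widely. The decrease with miR-126 passed (log2 fold change -1.98, SE 0.42, adjusted p = 0.0208). Its share of the summed alpha subunit TPM was 6.05%, 8.41% and 7.89% in the controls and 2.78%, 3.19% and 2.37% with miR-126, so it was lower relative to the other alpha subunits too. With miR-150 the log2 fold change was -1.18 (adjusted p = 0.164), and -0.64 without the 2 short-biased libraries. An exon of AC017101.1 overlaps ITGAV on the other strand, and whether the counting used strand is not stated.

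The beta subunits that pair with alpha V did not move alike in value. ITGB8 (chr7:20330702-20415754, plus strand), a subunit that with alpha V binds and activates latent TGF-beta, measured 4.56, 4.71 and 6.69 TPM in the controls, 1.52, 1.73 and 1.06 with miR-126, 2.81, 2.64 and 1.53 with miR-143, and 3.18, 2.63 and 0.899 with miR-150. All mimic libraries lay under the lowest control, and the mimics overlapped one another. The miR-126 decrease passed (log2 fold change -1.37, SE 0.30, adjusted p = 0.0243), while miR-143 gave -0.93 (adjusted p = 0.131) and miR-150 -1.03 (adjusted p = 0.0938; -0.68 without the 2 short-biased libraries). ITGB8 passed for both with centring on the median gene (adjusted p = 0.0427 for miR-143 and 0.0382 for miR-150), with quantile normalization and with the length trend removed. An exon of AC004130.1 overlaps ITGB8 on the other strand, which makes its value uncertain. At these low levels the log2(TPM + 1) scale understates the change. ITGB3, the vitronectin and fibrinogen receptor subunit, measured 21.6, 33.2 and 25.1 TPM in the controls, 29.5, 31.7 and 26.7 with miR-126, 16.1, 15.8 and 7.57 with miR-143, and 12.6, 20.9 and 4.42 with miR-150. The miR-143 and miR-150 values of ITGB3 all lay under the lowest control and the miR-126 values within the control range, with log2 fold changes of -1.01 (adjusted p = 0.261) and -1.22 (adjusted p = 0.164) for the first pair. Without the 2 short-biased libraries the miR-150 value was -0.66. AC068234.1 shares exons with ITGB3 on the same strand, so its value is uncertain too. ITGB5, a vitronectin receptor subunit, measured 217, 139 and 302 TPM in the controls, 153, 91.2 and 183 with miR-126, 267, 160.5 and 249.6 with miR-143, and 154, 99.0 and 117 with miR-150. Replicate 3 of ITGB5 was the lowest in all 4 groups, and the log2 differences of the miR-126 libraries from their same-numbered controls were -0.50, -0.60 and -0.72, which passed with the block alone (adjusted p = 0.338, with the block 0.0290). Leaving out 1 library gave -0.90 to -0.31 for ITGB5.

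Among the fibronectin receptors, ITGA5, the alpha subunit of the classical fibronectin receptor, measured 828, 497 and 832 TPM in the controls, 473, 353 and 493 with miR-126, 560.3, 369 and 545 with miR-143, and 494, 302 and 370.3 with miR-150. Every miR-126 and miR-150 library was under the lowest control, which was replicate 3, the low number in each group. ITGA5 passed for miR-126 with the block alone (log2 fold change -0.68, adjusted p = 0.149, with the block 0.00202), with same-number differences of -0.81, -0.49 and -0.75. ITGA4, which binds fibronectin and VCAM1, measured 72.8, 56.7 and 86.7 TPM in the controls, 39.2, 30.5 and 35.6 with miR-126, 66.5, 36.6 and 36.4 with miR-143, and 40.9, 37.5 and 19.6 with miR-150. ITGA4 likewise had no overlap between controls and miR-126 or miR-150, with log2 fold changes of -1.005 (adjusted p = 0.0781, with the block 0.0260) and -1.16 (adjusted p = 0.0579). ITGB1, the beta subunit shared by these and most other receptors, measured 806, 828 and 899 TPM in the controls, 721, 598 and 709.6 with miR-126, 1029.5, 794 and 757 with miR-143, and 801, 809.7 and 543 with miR-150. The highest miR-126 value of ITGB1 was under the lowest control, but ITGB1 passed in neither fit. For miR-126 ITGB1 passed with the length trend removed (limma, adjusted p = 0.0236). It did not pass with centring (0.0561), quantile normalization (0.616) or without the 2 short-biased libraries (0.0875).

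The laminin receptor subunit ITGA3 (chr17:50055968-50090481, plus strand) measured 236, 242 and 220.0 TPM in the controls, 148, 182 and 151 with miR-126, 292, 250.2 and 265 with miR-143, and 178, 185 and 132 with miR-150. Its groups did not overlap with the controls: miR-126 and miR-150 lay under them and miR-143 above. The decrease with miR-126 was small but passed (log2 fold change -0.54, SE 0.14, adjusted p = 0.0454). ITGA3 was also lower with miR-126 than with miR-143 (log2 fold change -0.75, SE 0.14, adjusted p = 0.0174) and higher with miR-143 than with miR-150 (log2 fold change 0.72, SE 0.14, adjusted p = 0.0202), the last not without the 2 short-biased libraries (log2 fold change 0.57, adjusted p = 0.0516). ITGA6, a laminin receptor subunit that pairs with ITGB1 or ITGB4, measured 94.0, 78.8 and 107 TPM in the controls, 72.0, 47.1 and 64.4 with miR-126, 114, 61.8 and 68.6 with miR-143, and 105, 79.5 and 58.1 with miR-150. Its miR-126 values were all under the controls, and the difference did not pass (log2 fold change -0.61, SE 0.26, adjusted p = 0.234). ITGB4, its partner in hemidesmosomes, measured 15.7, 10.5 and 13.1 TPM in the controls, 20.3, 9.83 and 13.6 with miR-126, 30.8, 19.1 and 27.0 with miR-143, and 28.3, 17.7 and 28.4 with miR-150. The miR-143 and miR-150 values of ITGB4 all exceeded the highest control, without passing against the controls in the fit with no block. The epithelial marker list was higher in the same groups (446 to 634 TPM summed in the controls, 730 to 952 with miR-143 and 900.0 to 1024 with miR-150), with CDH1, KRT5 and KRT14 under 1 TPM, and its part in ITGB4 was not tested.

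Of the collagen receptor subunits, ITGA10 measured 64.5, 21.2 and 75.9 TPM in the controls, 99.9, 41.8 and 98.0 with miR-126, 87.6, 26.6 and 64.2 with miR-143, and 55.2, 20.8 and 35.4 with miR-150. Replicate 3 was low in every group, so that the groups overlapped, but each miR-126 library exceeded its same-numbered control by 0.62, 0.95 and 0.37 on the log2 scale, and ITGA10 passed with the block alone (log2 fold change 0.65, adjusted p = 0.604, with the block 0.0350). Without control replicate 3 the value was 0.087. ITGA11 measured 2.43, 2.47 and 4.26 TPM in the controls, 3.29, 2.86 and 3.89 with miR-126, 1.39, 0.832 and 1.23 with miR-143, and 1.97, 0.278 and 0.955 with miR-150. ITGA11 was thus 4.26 TPM at most, with miR-143 and miR-150 under the controls in every library (log2 fold changes -0.89, adjusted p = 0.146, and -1.03, adjusted p = 0.0919). ITGA1 ranged from 5.53 to 37.3 TPM and ITGA2 from 4.17 to 23.5 TPM, both lowest in replicate 4 of miR-150. For ITGA1 the log2 fold change with miR-150 was -1.08 (adjusted p = 0.234), and -0.67 without the 2 short-biased libraries; PELO shares exons with it on the same strand, which makes its value uncertain. ITGA7 (0.607 to 4.803 TPM) and ITGAE (19.8 to 49.1 TPM) passed in neither fit.

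The main transcripts of ITGAV, which differ in their 3' UTR, were both lower with miR-126 in value; kallisto estimates this division and no test was made on it. ITGAV-201, with a 3' UTR of 3609 bases, measured 70.7, 54.7 and 69.4 TPM in the controls and 11.7, 8.20 and 7.99 TPM with miR-126. ITGAV-204, with a 3' UTR of 149 bases, measured 17.0, 32.6 and 51.3 TPM in the controls and 11.7, 12.6 and 12.6 TPM with miR-126. The longer form made up 56.9% to 79.6% of ITGAV in the controls and 34.6% to 44.1% with miR-126, so the shares did not overlap. For ITGB8, the long form ITGB8-201 (3' UTR of 5757 bases) measured 4.31, 3.999 and 6.02 TPM in the controls and 0.858, 0.851 and 0.793 TPM with miR-126. The short form ITGB8-205 (3' UTR of 333 bases) measured 0.237, 0.658 and 0.560 TPM and 0.444, 0.743 and 0.179 TPM, with overlapping groups, all under 1 TPM. In both genes the long form lay under the controls in every miR-126 library, and neither gene holds CGGTACG in its longest 3' UTR. ITGA3-202, which carries 70.1% of the ITGA3 TPM over the 12 libraries, measured 168, 169 and 161 TPM in the controls and 109, 115 and 104 TPM with miR-126.

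**Figure D3:**
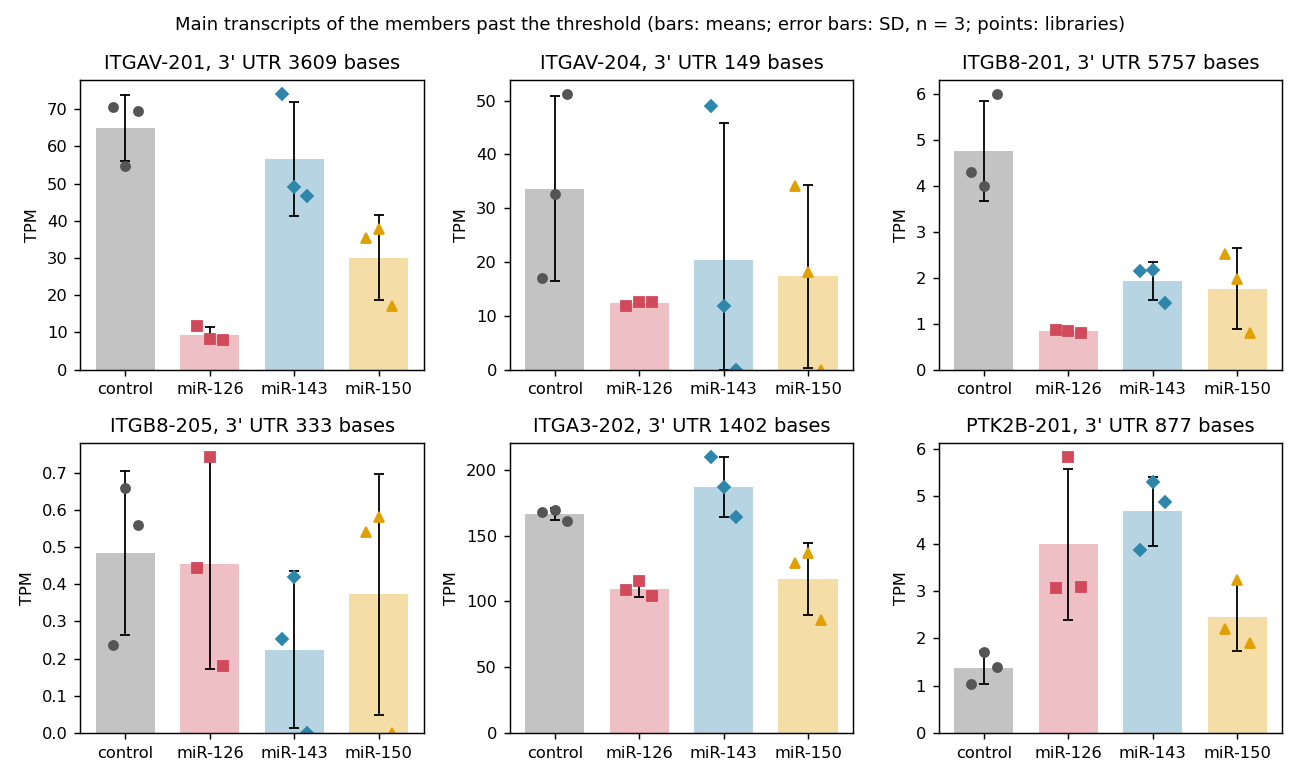
TPM (vertical axis from 0) of the main transcripts of the members past the threshold, by group; bars are means of 3 libraries, error bars are SD, cut off at 0, and points are libraries. ITGAV-201 and ITGB8-201 with miR-126 lie far under the controls (9.30 ± 2.09 against 65.0 ± 8.87 TPM and 0.834 ± 0.0353 against 4.78 ± 1.09 TPM, SD, n = 3), and ITGB8-205 overlaps.

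Among the kinases, PTK2B (PYK2), a relative of focal adhesion kinase, measured 2.34, 2.21 and 2.46 TPM in the controls, 6.51, 8.29 and 5.73 with miR-126, 8.30, 5.89 and 5.56 with miR-143, and 4.32, 6.70 and 2.26 with miR-150. All miR-126 and miR-143 libraries exceeded every control and the controls lay close together. For PTK2B the increase passed with miR-126 (log2 fold change 1.22, SE 0.28, adjusted p = 0.0321) and with miR-143 (log2 fold change 1.17, SE 0.28, adjusted p = 0.0495), both in contrasts with the same controls. Leaving out any 1 library of either comparison took it past 0.05 (adjusted p = 0.0743 to 0.110 and 0.0985 to 0.160). With miR-150 the 3 values ran from within the control range to above it. PTK2, focal adhesion kinase itself, was the far more abundant of the pair (149.8 ± 14.6 TPM in the controls against 2.34 ± 0.125 TPM for PTK2B, SD, n = 3) and passed in neither fit, with 112 ± 9.79 TPM with miR-126, every library under the controls. For miR-126 PTK2 passed with centring (limma, adjusted p = 0.0482) and with the length trend removed (0.0471). It did not pass with quantile normalization (0.112) or without the 2 short-biased libraries (0.102). SRC, the tyrosine kinase that acts with focal adhesion kinase, measured 26.2, 43.0 and 26.6 TPM in the controls, 38.2, 54.2 and 26.1 with miR-126, 23.6, 35.2 and 20.5 with miR-143, and 25.2, 37.2 and 13.1 with miR-150. SRC overlapped between all groups, and the miR-126 libraries exceeded same-numbered miR-150 libraries by 0.58, 0.53 and 0.94 on the log2 scale (adjusted p = 0.301, with the block 0.0200). The log2 fold change was 0.69, and 0.30 without the 2 short-biased libraries.

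CRK, an adaptor of SH2 and SH3 domains downstream of Cas and paxillin and a reported miR-126 target, measured 94.8, 83.8 and 102 TPM in the controls, 69.3, 57.3 and 64.8 with miR-126, 103, 76.2 and 80.5 with miR-143, and 93.0, 80.9 and 62.2 with miR-150. Its miR-126 values lay under every control and under every library of the other mimics except replicate 4 of miR-150. The difference did not pass without the block (log2 fold change -0.54, SE 0.17, adjusted p = 0.0865) and passed with it (adjusted p = 0.0205). CRK also passed with no block when the 2 short-biased libraries were left out (adjusted p = 0.0287), with centring (0.0112), with quantile normalization (0.0197) and with the length trend removed (0.0123). Its relative CRKL measured 40.1, 33.04 and 42.3 TPM in the controls, 46.4, 36.1 and 45.3 with miR-126, 41.0, 28.99 and 26.9 with miR-143, and 36.6, 27.7 and 20.7 with miR-150. CRKL passed for miR-126 against miR-150 with the block alone (log2 fold change 0.60, adjusted p = 0.143, with the block 0.0360). RAPGEF1, the RAP1 exchange factor bound by CRK, was 46.6 ± 8.70 TPM in the controls and 65.1 ± 2.88 TPM with miR-126 (log2 fold change 0.49, SE 0.26, adjusted p = 0.332), and passed without the 2 short-biased libraries (adjusted p = 0.0399). Of the 3 members with the shorter miR-126-3p match, CRK and ITGA6 were thus lower and RAPGEF1 higher in value, and none passed in the fit of all 12 libraries with no block or other scaling. DOCK1, the RAC1 exchange factor of the same branch, ranged from 20.1 to 62.2 TPM.

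Of the paxillin and Cas scaffolds, paxillin itself, PXN, measured 127, 151 and 138 TPM in the controls, 206, 197 and 188 with miR-126, 171, 159.9 and 123 with miR-143, and 178, 196 and 105 with miR-150. All PXN values with miR-126 exceeded the controls. The difference did not pass in the fit of all 12 libraries with no block or other scaling. It passed without the 2 short-biased libraries (limma, adjusted p = 0.00626) and with the length trend removed (0.0133), not with centring (0.0960) or quantile normalization (0.108). With miR-150 PXN also passed without the 2 short-biased libraries. TGFB1I1 (HIC-5), a paxillin relative, measured 56.1, 67.6 and 56.6 TPM in the controls, 83.9, 84.5 and 73.7 with miR-126, 72.8, 68.9 and 55.8 with miR-143, and 60.2, 66.1 and 38.0 with miR-150. TGFB1I1 with miR-126 exceeded every other library, controls included, and passed against miR-150 with the block alone (log2 fold change 0.59, adjusted p = 0.107, with the block 0.0151), a difference of 0.35 without the 2 short-biased libraries. The Cas proteins BCAR1 (91.9 to 125 TPM) and NEDD9 (15.9 to 47.5 TPM) did not pass. BCAR1 and ZYX each sum 2 Ensembl genes of 1 symbol, so their levels are totals over both. Of their TPM, 51.4% and 50% lay in transcripts not found in GENCODE 29.

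Talin, kindlin and vinculin join integrin tails to actin. TLN1, the main talin, measured 176, 246 and 154 TPM in the controls, 207, 215 and 197 with miR-126, 223, 299.7 and 181 with miR-143, and 186, 198 and 141 with miR-150. FERMT2 (kindlin-2), the integrin activator beside talin, measured 112, 145 and 128 TPM in the controls, 146, 147 and 145 with miR-126, 158, 142 and 108 with miR-143, and 123, 139.9 and 75.3 with miR-150. FERMT2 values with miR-126 lay close together and just above the highest control, while TLN1 overlapped between groups; neither passed in either fit. Vinculin (VCL, 58.8 to 167 TPM) and the second talin gene TLN2 (0.853 to 4.75 TPM) did not pass either.

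The PINCH proteins LIMS1 and LIMS2 and the parvins bind integrin-linked kinase. LIMS1 measured 58.1, 71.6 and 65.7 TPM in the controls, 69.6, 64.7 and 75.7 with miR-126, 74.3, 52.3 and 45.1 with miR-143, and 46.3, 52.0 and 21.9 with miR-150. LIMS1 was lower with miR-150 in every library than in the controls, and higher with miR-126 than with miR-150 with the block alone (log2 fold change 0.88, adjusted p = 0.101, with the block 0.0428), a difference of 0.50 without the 2 short-biased libraries. LIMS2 measured 75.3, 52.1 and 70.0 TPM in the controls, 74.2, 59.0 and 76.4 with miR-126, 90.8, 71.3 and 104 with miR-143, and 87.3, 61.4 and 82.3 with miR-150. It was lower with miR-126 than with miR-143 with the block alone (log2 fold change -0.33, adjusted p = 0.433, with the block 0.0314), a difference of -0.21 without the 2 short-biased libraries. PARVA (mean 72.1 TPM over the 12 libraries) and PARVB (21.8 to 54.7 TPM) did not pass.

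Tensins and the zyxin family bind actin at maturing adhesions. TNS3 measured 13.4, 13.9 and 15.1 TPM in the controls, 20.1, 16.1 and 19.2 with miR-126, 13.2, 9.93 and 8.94 with miR-143, and 16.8, 13.2 and 9.10 with miR-150. The 3 miR-126 values of TNS3 exceeded the controls and the 3 miR-143 values were under them, and the mimics differed with the block (log2 fold change 0.75, adjusted p = 0.104, with the block 0.0302). ZYX (zyxin) measured 244, 311 and 239 TPM in the controls, 235, 295 and 230.3 with miR-126, 219, 273 and 225 with miR-143, and 197, 271 and 185 with miR-150. ZYX passed for miR-126 against miR-150 with the block alone (log2 fold change 0.23, adjusted p = 0.436, with the block 0.0413), and was 0.12 without the 2 short-biased libraries; centring on the median gene turns its sign (-0.035). ITGB1BP1 (ICAP-1), which binds the ITGB1 tail, measured 286, 301 and 269 TPM in the controls, 247, 254 and 264 with miR-126, 271, 297 and 311 with miR-143, and 223, 258 and 283 with miR-150. ITGB1BP1 was the most abundant adaptor, with a mean of 272 TPM, of which 42.3% lay in protein-coding transcripts. TNS1, TNS2 and LPP ranged from 9.38 to 33.7, 44.6 to 111 and 2.25 to 20.2 TPM, and did not pass.

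**Figure D4:**
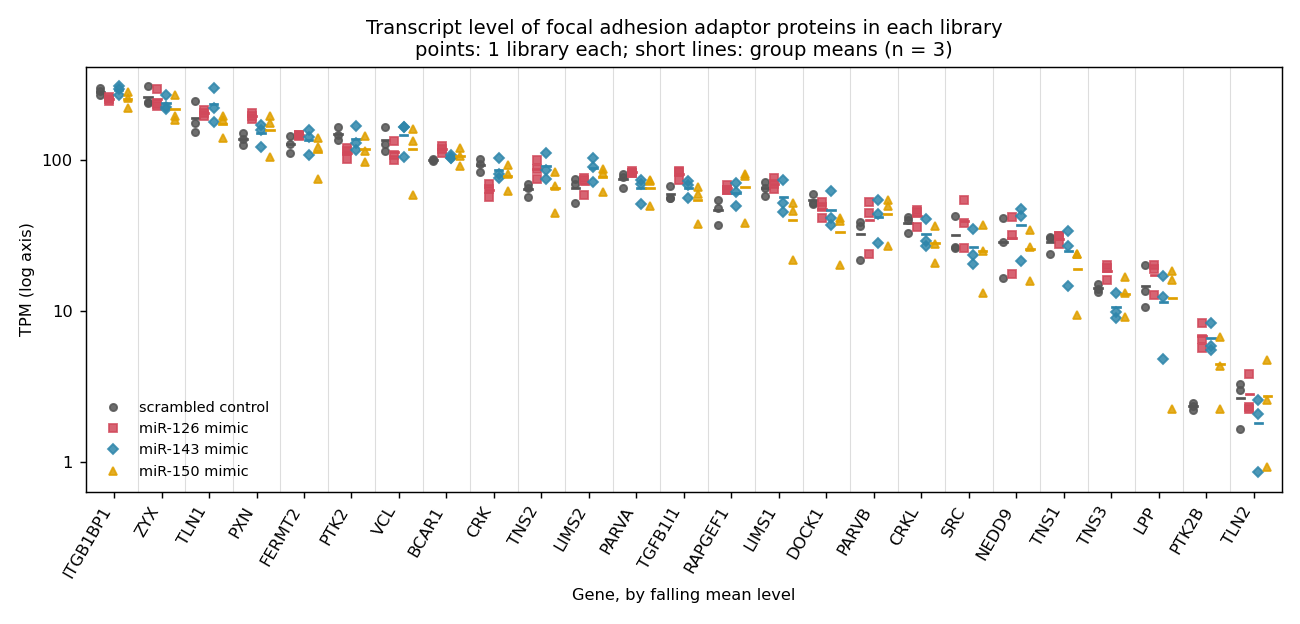
TPM of the 25 adaptor proteins (horizontal axis, by falling mean level) in each of the 12 libraries on a log axis; points are libraries and short lines are group means of 3. Most groups overlap; PTK2B with miR-126 (5.73 to 8.29 TPM) and with miR-143 (5.56 to 8.30 TPM) lies above the controls (2.21 to 2.46 TPM).

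Between mimics, few members passed without the block. For miR-126 against miR-143, 1 of 41 members was lower (ITGA3) and 0 higher, with 1.05% of tested genes lower and 1.46% higher; ITGA3 failed in 4 of 6 fits that leave out 1 library, passing only without replicate 3 of miR-126 or of miR-143. The block called 8 members: ITGA3, ITGAV, ITGB4, ITGB5 and LIMS2 lower and ITGA11, ITGB3 and TNS3 higher with miR-126 (3.45% of tested genes lower and 7.57% higher). Of these, ITGAV had a log2 fold change of -1.56 (adjusted p = 0.0865, with the block 0.0279), and ITGB3 of 1.16 (adjusted p = 0.210, with the block 0.0447). ITGAV also passed with no block when the 2 short-biased libraries were left out (limma, log2 fold change -1.82, adjusted p = 0.00658). For miR-126 against miR-150, limma called 0 of 41 members, with 0.8% of tested genes lower and 3.11% higher; at an unadjusted p under 0.05, 1 member was lower and 7 were higher. The share of all tested genes at the unadjusted cut was not counted. The block called 9, ITGB4 lower and ITGA10, ITGA11, ITGB3, CRKL, LIMS1, SRC, TGFB1I1 and ZYX higher with miR-126 (3.06% of tested genes lower and 15.8% higher). Leaving out single libraries also changed the count: ITGA11 passed without miR-150 replicate 2 (adjusted p = 0.0306), ITGB3 without miR-150 replicate 3 (0.0289) and ITGAV, lower, without miR-150 replicate 4 (0.0420). With both short-biased libraries left out, ITGAV was again called lower than with miR-150 (limma, log2 fold change -1.35, adjusted p = 0.0217). For miR-143 against miR-150, ITGA3 was higher and no member lower, with 1.59% of tested genes higher and 0.604% lower; it failed in 2 of 6 fits, without replicate 2 (0.0937) or 4 (0.0732) of miR-143. With the block ITGB5 was higher with miR-143 too (log2 fold change 0.86, adjusted p = 0.241, with the block 0.0104), with 7.06% of tested genes higher and 2.68% lower. Centring turns the split of called genes from 201 higher and 145 lower to 156 and 282 for miR-126 against miR-143, from 427 and 110 to 224 and 329 against miR-150; for miR-143 against miR-150 it goes from 218 and 83 to 198 and 126.

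Set side by side, the summed TPM of the integrin subunits was 2535, 2078 and 2792 in the controls, 1881, 1477 and 1892 with miR-126, 2696, 1866 and 2149 with miR-143, and 2018, 1681 and 1383 with miR-150. The miR-126 and miR-150 sums all lay under the lowest control, and miR-143 overlapped the controls. The adaptors summed to 2113 ± 128 TPM in the controls, 2199 ± 36.1 with miR-126, 2199 ± 202 with miR-143 and 1919 ± 335 with miR-150 (SD, n = 3). The ratio of the integrin to the adaptor sum was 1.18 ± 0.221 in the controls, 0.796 ± 0.107 with miR-126, 1.02 ± 0.166 with miR-143 and 0.885 ± 0.0923 with miR-150. These sums are set mainly by ITGB1 and ITGA5, and no test was made on them. With miR-150, the median integrin deviation from the control mean was -0.30, -0.79 and -0.88 in replicates 2, 3 and 4, and that of the adaptors -0.00056, 0.043 and -0.58. The adaptor median was thus near the control mean in replicates 2 and 3 and under it in replicate 4, a short-biased library, where the median of all tested genes was -0.36. The integrin median was under the control mean in all 3. With the per-library length trend removed, the integrin median minus the adaptor median was -0.44 with miR-126, -0.062 with miR-143 and -0.52 with miR-150.

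**Figure D5:**
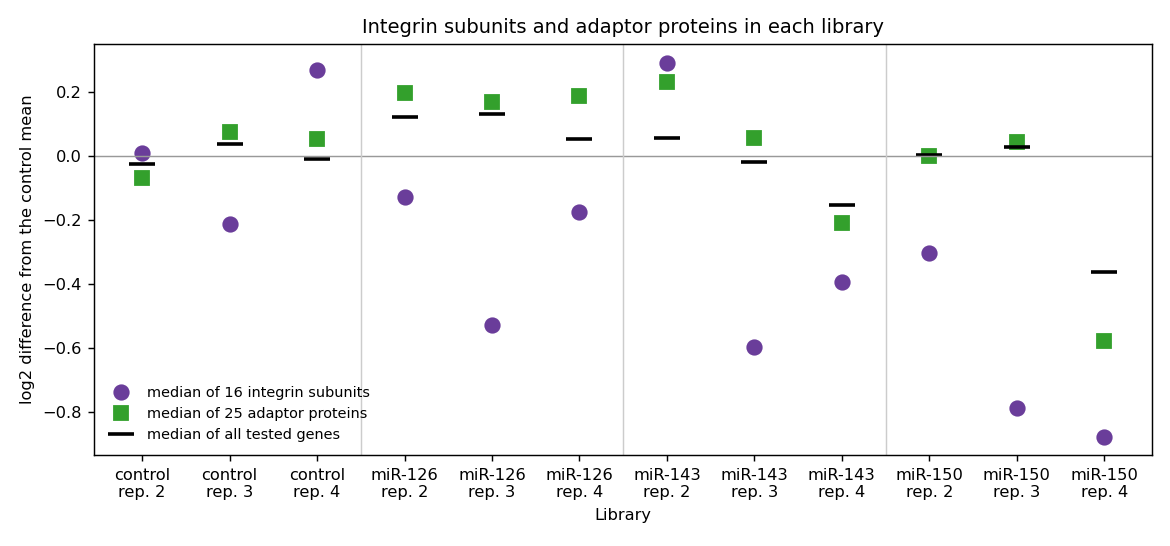
Median log2 difference from the control mean (vertical axis) in each of the 12 libraries (horizontal axis) for the 16 tested integrin subunits, the 25 adaptors and all tested genes. Integrin medians lie under the adaptor medians in all miR-126 and miR-150 libraries, and the adaptors drop in replicate 4 of miR-150.

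No member with a TCATCTC site passed with miR-143 in the fit of all 12 libraries with no block or other scaling; ITGB8 passed with the other scalings given above. Of the 10, 7 had a log2 fold change under 0, and their median was -0.24, against 0.015 for the members without a site. The corresponding medians over all tested genes were -0.20 with a site and -0.018 without one, so the members' values were near those of other genes with the site. ITGB8 (-0.93), ITGA11 (-0.89) and ITGA5 (-0.53) were lowest, followed by TNS3 (-0.39), TNS1 (-0.24), ITGA6 (-0.24) and PARVA (-0.21), in log2 fold change. ITGB5 (0.079), NEDD9 (0.37) and LIMS2 (0.43) were above 0. The signs of TNS1 and ITGB5 turn when replicate 4 of miR-143 is left out (0.092 and -0.010), and ITGA6, PARVA and NEDD9 are then nearer 0 (-0.14, -0.055 and 0.24). PTK2B, the member that rose with miR-143, holds no such site in its longest 3' UTR.

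Of 58 other symbols of integrin signalling listed by name, 56 were tested. The list includes HIC5, another name of the member TGFB1I1. With miR-126, 4 fell and 0 rose: ILK, integrin-linked kinase (217 ± 8.61 to 86.4 ± 3.76 TPM, SD, n = 3; log2 fold change -1.32, adjusted p = 4.48e-05; the gene overlaps TAF10 on the other strand, which makes its value uncertain), CSK, the kinase that restrains SRC (67.9 ± 4.95 to 42.2 ± 1.95 TPM), the small GTPase RHOA (1174 ± 114 to 831 ± 57.1 TPM) and SORBS3, vinexin (119 ± 8.17 to 87.0 ± 3.22 TPM). With miR-143, CD47, an integrin-associated membrane protein, rose (127 ± 14.2 to 196 ± 21.0 TPM) and FHL2, a LIM protein, fell (104 ± 10.7 to 61.5 ± 4.14 TPM). With miR-150, FHL2 fell alone (to 71.3 ± 2.34 TPM). ILK binds the PINCH and parvin members, and none of those 4 passed with miR-126. The median log2 fold change of the 56 genes was -0.079, -0.023 and -0.17 for miR-126, miR-143 and miR-150, against 0.10, -0.043 and -0.11 for all tested genes. Over all tested genes 1.73% were lower and 3.37% higher with miR-126, 1.48% and 1.84% with miR-143, and 2.23% and 1.08% with miR-150. With the block 6 of the 56 were lower and 3 higher with miR-126, against 5.11% and 11.8% of all tested genes.

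Of 27 listed symbols of matrix proteins that integrins bind, 22 were tested. The list holds CCN1 and CCN2 also under their older symbols CYR61 and CTGF, so an untested symbol need not be an unexpressed gene. With miR-126, fibronectin FN1 (352 ± 40.7 to 240.4 ± 32.1 TPM, SD, n = 3), fibrillin FBN1 (140.0 ± 15.1 to 61.9 ± 8.11 TPM) and TGFBI (517 ± 14.9 to 258 ± 11.0 TPM) fell, and CCN1 (483 ± 24.2 to 619 ± 15.5 TPM) and LTBP1, which holds latent TGF-beta in the matrix (32.5 ± 2.58 to 57.9 ± 2.83 TPM), rose. With miR-143, thrombospondin THBS1 (1115 ± 261 to 385 ± 161 TPM) and TGFBI (to 351 ± 18.4 TPM) fell and LTBP1 (to 67.5 ± 12.7 TPM) rose. With miR-150, FN1 (to 221 ± 24.7 TPM) and TGFBI (to 253 ± 28.1 TPM) fell. FN1, FBN1 and TGFBI carry integrin-binding sites for the alpha V or fibronectin receptors described above. The median log2 fold change of the 22 genes was -0.29, -0.33 and -0.40 in the same order, against the same 0.10, -0.043 and -0.11 for all tested genes. The shares of all tested genes called are those given for the signalling genes. With the block 6 of the 22 were lower and 2 higher with miR-126, against 5.11% and 11.8% of all tested genes. The comparisons share their control libraries, so equal directions across mimics are not independent.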

How the data were processed

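The authors deposited transcript-level TPM made with kallisto, per the submitters' processing notes, which also name FastQC, sleuth and GRCh38 (hg38). Not given in the sources used here were their versions, the transcript annotation, any filter and the strand setting. The table holds 187626 transcripts in 12 columns, matched to libraries by name. TPM in the authors' table are scaled for both length and library total, so an effect that depends on transcript length stays in them and the number of reads is lost. Precision therefore comes from the spread between libraries alone.

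TPM were summed per gene symbol, leaving out 171 transcripts without a gene. The 13750 genes reaching 1 TPM in 3 or more libraries were tested on log2(TPM + 1) with limma 3.58.1 in R 4.3.3 (moderated test with a mean-variance trend, group as the only term, all 12 libraries, two-sided). Benjamini-Hochberg adjustment ran over all tested genes of a comparison (threshold 0.05). The fit was run on simulated data with independent noise in each gene and no effect of replicate number or transcript length. That run cannot show how the fit behaves where such effects are present. Fold changes are on the log2(TPM + 1) scale and understate changes of low genes. Transcript types, lengths, positions and 3' UTRs come from GENCODE 29, in which 90.6% of the transcripts were found, and microRNAs from RefSeq.

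Members and lists were chosen with earlier results of these data known, so lists are described by counts and medians beside those of all tested genes, with no test over a list. Counts at an unadjusted p have no such figure for all tested genes. A value in every library is given for members past the threshold in any comparison with or without the replicate block, and for the 5 most abundant integrin subunits and adaptors. Transcripts are named where they hold at least 10% of a member past the threshold, and genes of the other lists where they pass against the control.

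Whether replicate numbers pair the libraries was checked from the correlation, over genes, of the residuals of libraries sharing a number. For numbers 2, 3 and 4 it was 0.289, 0.634 and 0.401 between miR-126 and the control, 0.321, 0.664 and 0.365 between miR-126 and miR-143, 0.291, 0.547 and 0.284 between miR-126 and miR-150, and 0.586, 0.634 and 0.737 between miR-143 and miR-150. The numbers were taken as pairs for these 4 comparisons, although no label explains them. For miR-143 and miR-150 against the control the lowest correlations were 0.0438 and 0.0726, and they were not taken as pairs. Alternatives tried were the pseudocount, the filter, median centring, quantile normalization, the replicate block, the 6 libraries compared alone, removal of a per-library trend on transcript length, and leaving out libraries.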

Additional observations from a re-analysis of the deposited data

How the results depend on the processing

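With all 12 libraries and no block, limma called 702, 457 and 456 genes for miR-126, miR-143 and miR-150 against the control, then 346 and 537 for miR-126 set against the other mimics (miR-143, then miR-150) and 301 for miR-143 against miR-150. In the same order, members called were 4, 1, 0, 1, 0 and 1. The replicate block gave 2331, 1775, 1694, 1515, 2599 and 1340 genes and 9, 6, 9, 8, 9 and 2 members. For miR-143 and miR-150 against the control the numbers do not pair by the check used, so these 2 block fits are given as counts only. Removing the length trend gave 1510, 1074, 917, 844, 951 and 640 genes, with 10, 4, 7, 6 and 5 members in the first 5 comparisons; with the replicate block as well it gave 3659, 3278, 2733, 2750, 3120 and 2483 genes and 20, 14, 18, 19, 17 and 12 members. The 6 libraries compared alone gave 1673, 266, 57, 187, 19 and 4 genes, with 9 members in the first comparison and 0 in the last. Without the 2 short-biased libraries, 1835, 707, 587, 578, 696 and 262 genes were called, and 9, 1, 2, 2, 1 and 0 members. Median centring called 901, 599, 582, 438 and 553 genes in the first 5 comparisons, with 7, 2, 2, 3 and 1 members. Quantile normalization called 764 genes for miR-143, with 2 members, and 673 for miR-150, with 4. In the fourth comparison it called 492 genes, with 2 members. A pseudocount of 5 TPM called 454 genes and 0 members for miR-143, and 627 genes and 1 member in the fifth comparison. No filter called 563 genes for miR-126 and 382 for miR-143, with 0 members in each. The cause of these changes was not tested; leaving out libraries also leaves fewer samples.

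Leaving out 1 library at a time gave 214 to 472, 139 to 339 and 125 to 553 genes against the control, and 77 to 183, 117 to 717 and 127 to 353 between mimics. Members called ranged from 0 to 2, 0 to 0, 0 to 2, 0 to 1, 0 to 1 and 0 to 1. The integrin median minus the adaptor median was -0.41, -0.24 and -0.60 for miR-126, miR-143 and miR-150, and ranged from -0.56 to -0.32, -0.50 to 0.010 and -0.87 to -0.36. In the other settings it stayed below 0 for all 3 mimics.

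Signs turned for ITGB5 with miR-143 (-0.21 to 0.34 over the fits that leave out 1 library, below 0 without control replicate 3 and without miR-143 replicate 2 or 4, and -0.010 without the 2 libraries), for TNS1 with miR-143 (-0.48 to 0.092 over such fits, above 0 without miR-143 replicate 4, and 0.092 without the 2 libraries) and for ZYX between miR-126 and miR-150 (-0.035 with centring). Protein-coding transcripts alone gave integrin to adaptor ratios of 1.47, 0.971, 1.27 and 1.13 for the control, miR-126, miR-143 and miR-150. The 3' UTR of the most abundant transcript held the miR-143-3p site in 9 members and the miR-126-3p site in 0, and the shorter miR-126-3p match, added after seeing the data, was in 3. The standard error of the log2 fold change was largest for LPP (0.61), ITGA10 (0.57), ITGA1 (0.45), ITGA2 (0.44) and ITGB3 (0.43) among the 41 tested members.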
